A study of Mus musculus with 2 samples.

Results

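The cells described here are pancreas-infiltrating lymphocytes with at least 1 transcript of Ncr1, the gene of the activating receptor NKp46 (ENSMUSG00000062524, chromosome 7, 4337724 to 4345164 on mm10, GENCODE vM21). They were chosen by raw counts of unique molecular identifiers (UMIs) per cell barcode: Ncr1 at 1 or more, Cd4 at 0, Cd8a plus Cd8b1 at most 1, the B cell gene Cd79a at most 1, the myeloid gene Lyz2 at most 1, and the sum of 7 cell cycle genes (Mki67, Top2a, Birc5, Ccna2, Rrm2, Cdk1, Nusap1) under 4. This gave 126 cells of 3913 kept barcodes, 65 of 1109 at 7 weeks and 61 of 2804 at 12 weeks. They were split by the summed UMIs of Cd3d, Cd3e and Cd3g, the chains of the CD3 complex that carries the signal of the T cell receptor. A cell with 1 UMI or more is called Cd3-positive (105 cells, 54 and 51) and a cell with 0 Cd3-negative (21 cells, 11 and 10). The split is by all 3 chains: Cd3e itself was found in 58 of the 105 Cd3-positive cells.

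NKp46 is carried by natural killer (NK) cells and by group 1 innate lymphoid cells (ILC1), lymphocytes without a rearranged antigen receptor, and by some unconventional T cells. NKp46 signals through partner proteins with an activation motif (ITAM), chiefly Fcer1g and Cd247. NK cells also carry C-type lectin receptors encoded side by side in the NK gene complex, among them the Ly49 family (Klra genes), the NKR-P1 family (Klrb1 genes), and Klrd1 and Klrk1. Activating Ly49 receptors such as Ly49D (Klra4) and Ly49H (Klra8) signal through the adaptor Tyrobp, also called DAP12, whereas Ly49E (Klra5), Ly49F (Klra6) and Ly49G (Klra7) are inhibitory.

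The donors were female NOD/ShiLtJ mice aged 7 or 12 weeks, which develop autoimmune diabetes spontaneously. CD45.1+ cells of their pancreas, isolated by flow cytometry, went into 10x Genomics Chromium 3' libraries, 1 for each age. All groups share the strain, sex and sort, no treatment is labelled, and how many mice a library pools was not stated in the labels. The libraries held 1113 barcodes with 8701184 UMIs and 2812 barcodes with 19288252 UMIs, and the mice, the preparation and the library cannot be told apart from age.

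Of the kept barcodes, 96 at 7 weeks and 79 at 12 weeks held Ncr1, and the other limits left out 31 and 18 of them. Of those left out, 17 and 6 held Cd4 and 9 and 3 held at least 2 UMIs of Cd8a plus Cd8b1, and a barcode could break more than 1 limit. Just inside the limits were 9 and 9 members with a single Ncr1 UMI, 3 and 8 with 1 UMI of Cd79a, 9 and 13 with 1 of Lyz2 and 2 and 2 with 1 of Cd8a or Cd8b1. Just outside, 5 and 6 Ncr1-positive barcodes held at least 2 UMIs of Cd79a and 4 and 4 at least 2 of Lyz2. The Ncr1 count of the members had a median of 4 at 7 weeks and 5 at 12 weeks. No member shared its barcode sequence with a member of the other library, and 2 barcode sequences occurred in both libraries as a whole. The doublet caller Scrublet marked 2 and 22 barcodes of the whole libraries and 0 members. These are values the rule used, and nothing is read from them.

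The cells were then checked against markers that the rule did not use. The 9 NK markers other than Ncr1 (Klrb1c, Eomes, Tyrobp, Fcer1g, Klrd1, Klra8, Itga2, Gzma, Prf1) summed to 7913 CPM (counts per 1000000 UMIs of the set) at 7 weeks and 9266 CPM at 12 weeks in the Cd3-negative cells, against 74.4 and 81.0 CPM in B cells (160 and 636 cells with at least 3 UMIs of Cd79a and 1 of Ms4a1). The 7 T cell markers other than the Cd3 genes (Cd5, Cd6, Cd28, Lat, Bcl11b, Themis, Trat1) gave 9 and 4 UMIs in the Cd3-negative cells, 182 and 67.6 CPM, beside 109 and 89.5 CPM in B cells. The Cd3-negative set thus had NK transcripts far above the B cell level and T cell transcripts near it. In cells with 8 or more Cd3 UMIs the T cell markers stood at 452 and 411 CPM. The 8 ILC1 markers summed to 2402 and 2722 CPM in the Cd3-negative set. They summed to 1433 and 1823 CPM in the Cd3-positive set and to 598 and 644 CPM in CD8 T cells. They include Ncr1 itself, which the rule required in members and which was excluded from the CD8 T cells. Ncr1 alone stood at 1211 and 1319 CPM in the Cd3-negative set, so these sums are no check of the cells. Another ILC1 marker, Zfp683, a transcription factor gene of tissue-resident lymphocytes, was at 0 in all 3 sets and both libraries. Zbtb16, the PLZF gene of innate-like T cells, gave 2 UMIs at 7 weeks and 0 at 12 weeks in the Cd3-positive set, and 2 and 3 UMIs in the Cd3-negative set. T cell receptor chain genes were not analysed here.

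Cd3 transcripts did not fall into a simple presence and absence. Of the members, 21 had 0 Cd3 UMIs, 21 had 1 or 2, 17 had 3 to 7 and 67 had 8 or more, up to 29 at 7 weeks and 33 at 12 weeks. The 7 week cells divided as 11, 14, 9 and 31 over these ranges and the 12 week cells as 10, 7, 8 and 36. B cells, which make no CD3, give the level of stray Cd3 transcripts: 48 of 160 at 7 weeks and 156 of 636 (24.5%) at 12 weeks held 1 or 2 Cd3 UMIs, at median depths of 5113 and 4648.5 UMIs against 6201.5 and 4813 in the Cd3-positive set. A member with 1 or 2 Cd3 UMIs is therefore at the B cell background, and the limit between 0 and 1 divides cells that this depth cannot tell apart. At 3 or more Cd3 UMIs stood 5.63% and 3.93% of B cells. Among Ncr1-negative, Ccl5-positive CD8 T cells (104 and 266 cells with at least 2 UMIs of Cd8a plus Cd8b1 and at least 1 Cd3 UMI), 96.2% and 92.9% held 8 or more, with medians of 17.5 and 18. The ranges of Cd3 UMIs were chosen after the data had been seen, and the levels given for them are descriptions without a test.

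**Figure D1:**
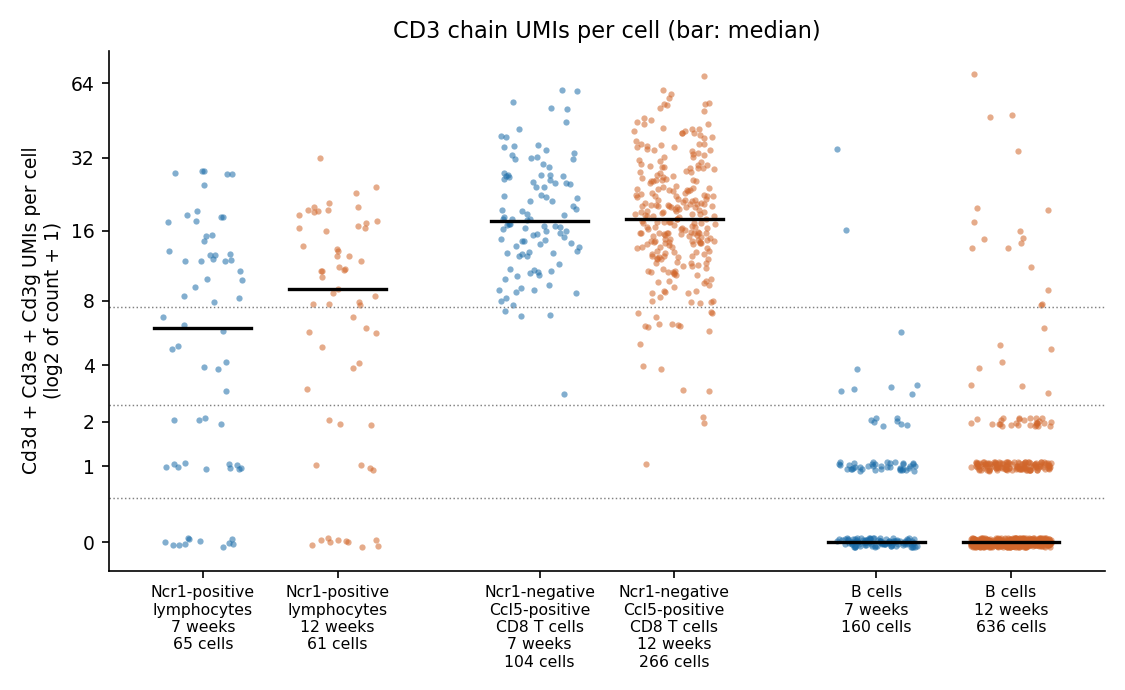
Cd3d plus Cd3e plus Cd3g UMIs per cell (vertical axis) in Ncr1-positive lymphocytes, CD8 T cells and B cells of each library, 1 point per cell with a slight jitter. Ncr1-positive cells run from 0 to 33 UMIs, with 67 of 126 at 8 or more, while most B cells sit at 0 to 2.

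The Cd3-negative and Cd3-positive sets were first compared over all genes, to see which genes beyond Cd3 differ between them. The counts were summed per set and library and fitted with edgeR's quasi-likelihood test, library as a term, over 3956 genes with at least 20 UMIs. At a Benjamini-Hochberg adjusted p under 0.05, 4 genes (0.101%) were higher in the Cd3-negative set and 0 (0.0%) lower, with 250 genes at an unadjusted p under 0.05, and DESeq2 called 7 higher and 0 lower. All 4 were MHC class II genes, which present peptides on antigen-presenting cells: Cd74, the invariant chain, and H2-Eb1, H2-Aa and H2-Ab1. The fit has 1 residual degree of freedom, so its spread is how unlike the set difference was in the 2 libraries. edgeR pools this spread over genes, with 5.63 prior degrees of freedom here. The counts were not stable: over the other settings planned for this fit they ran from 0 to 38 higher and from 0 to 120 lower.

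These MHC class II values come from 1 cell in each library. Cd74 stood at 2099 CPM in the Cd3-negative and 85.5 CPM in the Cd3-positive set at 7 weeks, and at 4988 against 120 CPM at 12 weeks. The log2 fold change was 4.90 ± 0.23 (SE; adjusted p = 0.000882, edgeR). Here and below the SE is the absolute log2 fold change divided by the square root of edgeR's F statistic. A single barcode held 95.2% of these Cd74 UMIs at 7 weeks and 98.3% at 12 weeks. The 7 week barcode had 99 UMIs of Cd74, 3 of Ncr1 and 0 of Gzma and Tyrobp. The 12 week barcode had 290 UMIs of Cd74, 29 of the chemokine gene Cxcl9 and 1 of Ncr1, and with 10420 UMIs was the deepest of the Cd3-negative cells. Among the other members the highest Cd74 count was 3. Whether these barcodes are doublets or cells of another type was not tested. Without them, an alternative chosen after the data had been seen, 5 genes were higher in the Cd3-negative set and 14 lower. The higher ones were Gzma, Klrb1b, Ccl3, Klrb1c and Tmem176a, the lower ones 11 ribosomal protein genes, Actb, Tmsb10 and the predicted gene Gm8730, and Cd74 was at -0.10.

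With all cells kept, none of those 5 genes passed the test, although each was higher in the Cd3-negative set of both libraries. Klrb1c is an NKR-P1 gene and one of the NK markers used here. It was at 484 CPM in the Cd3-negative and 109 CPM in the Cd3-positive set at 7 weeks. At 12 weeks it was at 592 against 137 CPM (log2 fold change 2.02, edgeR adjusted p = 0.159). Gzma, a granule protease, was at 3351 against 1672 CPM and at 3686 against 1088 CPM (1.27, edgeR adjusted p = 0.163). Of all 3956 genes tested, 1441 were higher in the Cd3-negative set of both libraries. Ccl3, an inflammatory chemokine, was at 606 against 142 CPM and 423 against 145 CPM (1.72, edgeR adjusted p = 0.234). The inhibitory receptor gene Lag3 was at 161 against 26.5 CPM and 287 against 48.2 CPM (2.45, edgeR adjusted p = 0.221). Its Cd3-negative values rest on few cells. At 7 weeks the Cd74-rich barcode held 5 of 8 Lag3 UMIs, and at 12 weeks single cells held 8 and 5 of 17.

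Some receptor and signalling genes pointed the other way, also without passing. The inhibitory Ly49E gene Klra5 was at 40.4 CPM in the Cd3-negative and 203 CPM in the Cd3-positive set at 7 weeks, and at 50.7 against 245 CPM at 12 weeks (log2 fold change -2.39, edgeR adjusted p = 0.254). Lat, the scaffold of T cell receptor signalling, was at 60.6 against 147 CPM and at 16.9 against 141 CPM (-2.04, edgeR adjusted p = 0.481). Ly49 genes are close copies of each other, their number and sequence differ between NOD and the reference strain, and counts may be split among them by the alignment, so each Klra value is uncertain as to the exact gene. The partners of NKp46 and of the activating Ly49 receptors were present in both sets: Fcer1g differed by 0.36 (edgeR adjusted p = 0.815) and Tyrobp by 0.43 (edgeR adjusted p = 0.871) on the log2 scale.

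By gene list, 0 members passed in either direction in each of the 16 lists, against 0.101% of all genes tested. The median fitted log2 difference of all tested genes was -0.05, with 1852 of 3956 positive and 2104 negative. It was -0.35 over 16 T cell receptor signalling genes, of which 14 were negative, and -0.32 over 14 T cell surface genes. It was 0.43 over 9 ITAM adaptor and NK signalling genes, 8 of them positive, 0.55 over 13 ILC1 and tissue residency genes, 12 of them positive, and 0.82 over 10 chemokine and cytokine genes. Over 21 NK receptor complex lectins it was 0.27, with 13 positive and 8 negative. Over 14 conventional NK genes it was 0.07, with 8 positive and 6 negative. Over 6 unconventional T cell genes it was -0.37, with 2 positive and 4 negative. These values include the 2 Cd74-rich barcodes, which held UMIs of Tmem176a and Tmem176b, genes of the ILC1 and tissue residency list. List medians without these barcodes were not computed. Ifng was at 161 against 233 CPM at 7 weeks and at 1015 against 185 CPM at 12 weeks, opposite in the libraries, and 1 cell held 59 of the 60 UMIs behind the value of 1015.

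The levels changed more with the number of Cd3 UMIs than at the limit between 0 and 1. Gzma was at 3534 CPM (both libraries summed; exact Poisson interval 3189 to 3905, counting error only) in cells with 0 Cd3 UMIs, at 4895 with 1 or 2, at 2052 with 3 to 7 and at 186 (145 to 234) with 8 or more. At least 10 Gzma UMIs were found in 7 of 21, 12 of 21, 4 of 17 and 2 of 67 cells of these ranges. Cells with 1 or 2 Cd3 UMIs thus had a summed Gzma level above that of the cells with none, and few cells with 8 or more reached this count. The range of 0 includes the 2 Cd74-rich barcodes, which held 0 Gzma UMIs at depths of 5771 and 10420 UMIs. In the range of 1 or 2, a single cell held 148 of the 428 Gzma UMIs at 7 weeks. The order of these 2 ranges without such cells was not tested. The low level at 8 or more was seen in both libraries. At 7 weeks the 4 values were 3351, 4893, 1297 and 322 CPM, and at 12 weeks 3686, 4900, 3382 and 43.3 CPM. In CD8 T cells Gzma was at 49.8 CPM.

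The lectin genes took different courses over the ranges. Klrb1c went from 543 to 271.5, 204 and 53.0 CPM over the ranges from 0 to 8 or more Cd3 UMIs, and Klra8, the activating Ly49H gene, from 709 to 1018, 860 and 246.5 CPM. Klra4, the Ly49D gene, followed with 874, 1137, 945 and 257 CPM, as did their adaptor Tyrobp with 1307, 1586, 1397 and 570 CPM. Klra5 took the opposite course, with 46.0, 102, 43.0 and 302 CPM, and Klra6, the inhibitory Ly49F gene, with 9.20, 33.9, 43.0 and 135 CPM. Klrd1, with 828, 543, 774 and 660 CPM, and Klrk1, with 791, 814, 559 and 543 CPM, took neither course. The 2 Cd74-rich barcodes, counted in the range of 0, held 0 UMIs of Klrb1c, Klra8 and Klra4, which lowers the values there. Among the 67 cells with 8 or more Cd3 UMIs, 26 held Klra5 and 18 Klra6. Klra5 in these cells reached 338 CPM (7 weeks) and 265 CPM (12 weeks), above each of the lower ranges at 7 weeks, which reached 40.4 CPM, but at 12 weeks a single cell with 9 UMIs put the range of 1 or 2 Cd3 UMIs at 296 CPM.

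**Figure D2:**
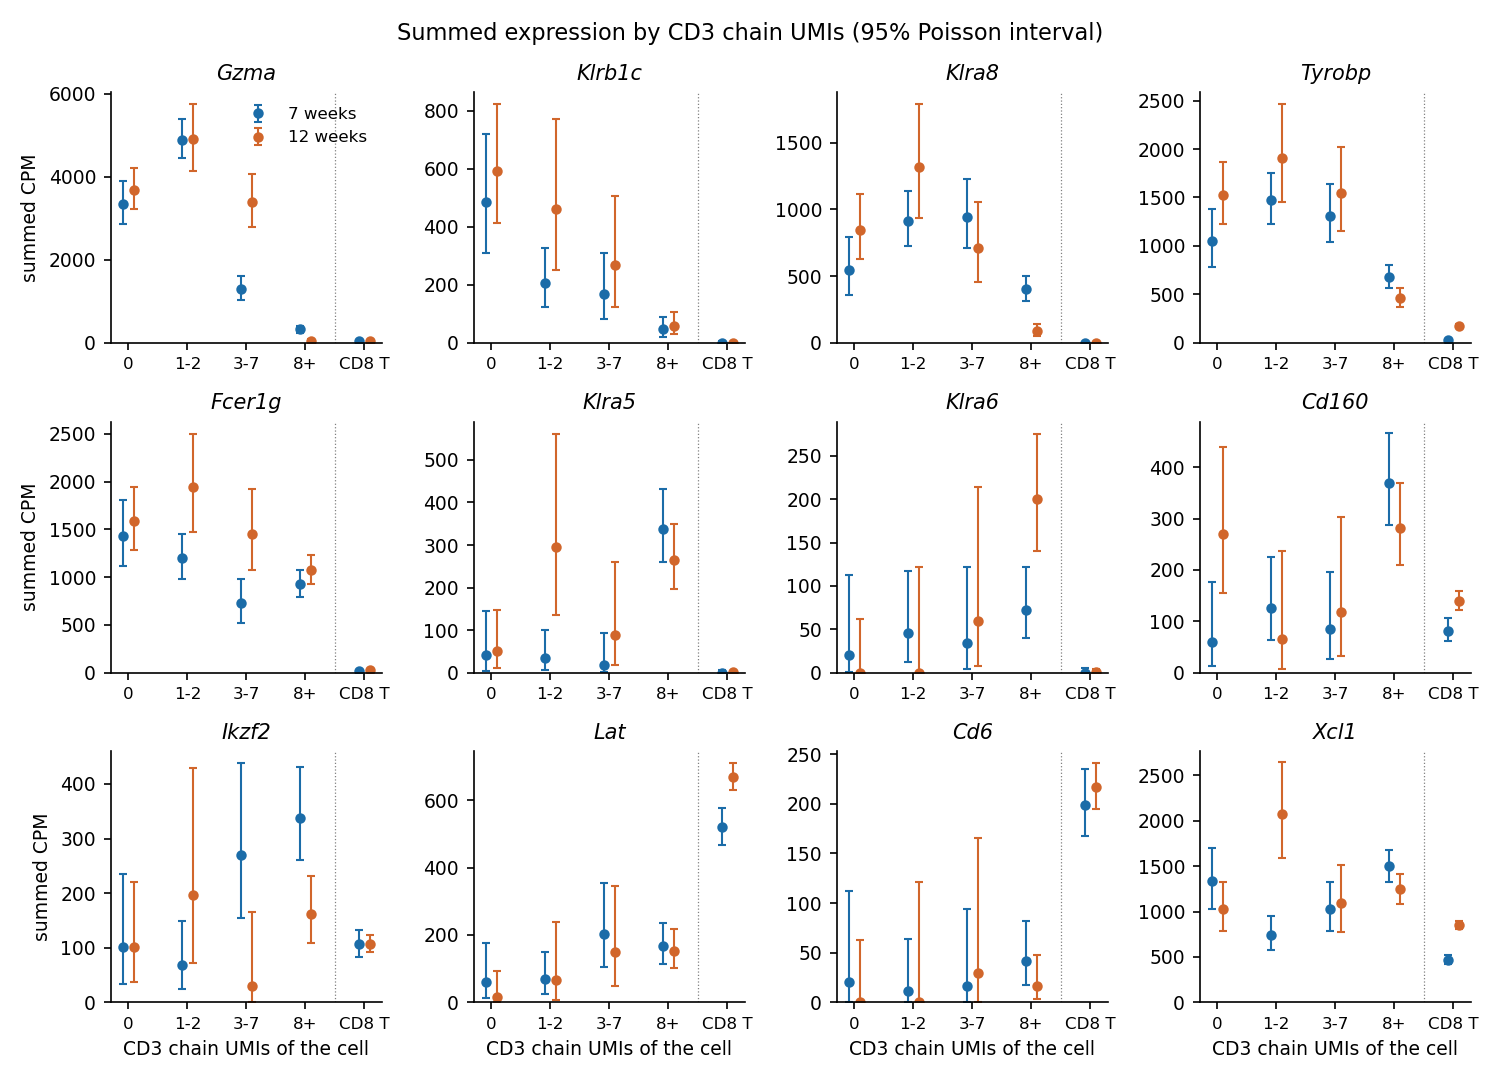
Summed CPM (vertical axes, linear, each gene on its own scale) of 12 genes in members with 0, 1 to 2, 3 to 7 and 8 or more Cd3 UMIs and in CD8 T cells (horizontal axes), coloured by library, with bars for the exact 95% Poisson interval. Gzma falls from 3351 and 3686 CPM at 0 Cd3 UMIs to 322 and 43.3 CPM at 8 or more.

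With the libraries summed, Fcer1g, Xcl1 and Ccl5 varied less over the ranges than Gzma or Klra8, though Ccl5 and Xcl1 varied more within a library. Fcer1g was at 1518, 1391, 988 and 997 CPM and was found in 61 of the 67 cells with 8 or more Cd3 UMIs, against 21.3 CPM in CD8 T cells and 23.6 CPM in B cells. The chemokine gene Xcl1, whose product draws cross-presenting dendritic cells, was at 1169, 1086, 1053 and 1373 CPM and was present in 65 of the 67, and Ccl5 at 8696, 9934, 7757 and 10755 CPM. By library, Ccl5 was at 7893, 6940, 4025 and 10657 CPM at 7 weeks and at 9368, 18547, 14330 and 10857 CPM at 12 weeks, and Xcl1 with 1 or 2 Cd3 UMIs at 743 and 2072 CPM. Cd160, a receptor of NK cells and of intraepithelial-type T cells, was at 326 CPM (271 to 389) with 8 or more Cd3 UMIs and at 96.7 to 175 CPM below. By library it was at 369 CPM (7 weeks) and 281 CPM (12 weeks) with 8 or more. At 12 weeks the range of 0 came close to this level, with 10 UMIs in a single cell. Cd160 was found there in 3 of 10 cells, against 26 of 36 with 8 or more. Ikzf2, which encodes Helios, was at 252 CPM (204 to 308) against 101 to 183 CPM, an order set by the 7 week library: at 12 weeks it was at 162 CPM with 8 or more and at 197 CPM with 1 or 2.

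T cell genes outside the CD3 complex followed the Cd3 count only in part. Cd28, the costimulatory receptor, was at 178 CPM (138 to 226) with 8 or more Cd3 UMIs, near the 183 CPM (166 to 201) of CD8 T cells, and at 64.4 CPM with 0. Lat was at 159 CPM against 625 CPM in CD8 T cells, and at 36.8 CPM with 0 Cd3 UMIs, under the 42.5 CPM of B cells. Cd5, which dampens T cell receptor signals, was at 15.9 CPM (5.84 to 34.6) in cells with 8 or more Cd3 UMIs, against 155 CPM in CD8 T cells and 10.97 CPM in B cells. The counting intervals of Cd5 in these cells and in B cells overlap. Themis, a factor of conventional T cell development, was at 13.3 against 71.6 CPM in CD8 T cells.

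**Figure D3:**
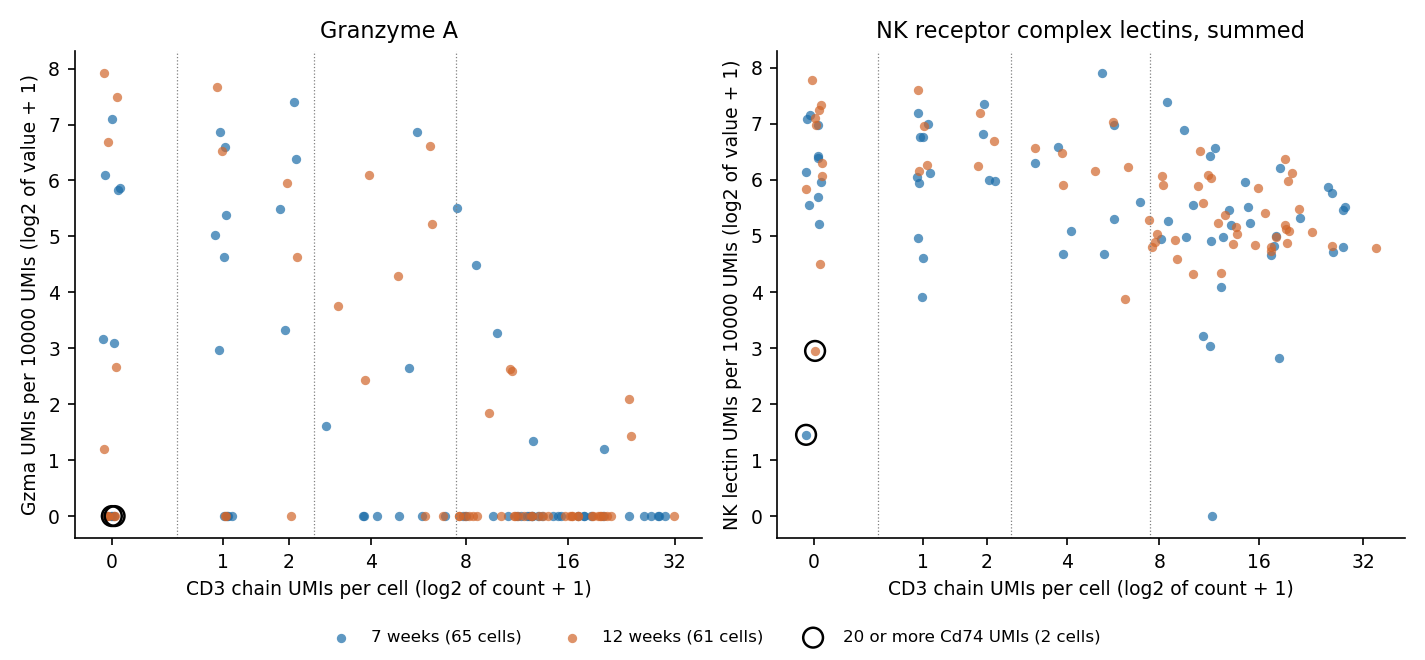
Each of the 126 members as 1 point by its Cd3 UMIs (horizontal axis) against its Gzma UMIs or its NK complex lectin UMIs, each scaled to the UMIs of the cell (vertical axes, log2 of the value plus 1), coloured by library and jittered along the horizontal axis, with the 2 Cd74-rich barcodes ringed. By raw count, cells with 10 or more Gzma UMIs number 23 of 59 at 0 to 7 Cd3 UMIs and 2 of 67 at 8 or more.

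The Cd3-positive set was then compared with Ncr1-negative Ccl5-positive CD8 T cells of the same libraries, T cells that also express Ccl5, to show what sets it apart from conventional cytotoxic T cells. Of the 105 Cd3-positive cells, 38 had 7 or fewer Cd3 UMIs. With the same edgeR fit over 7771 genes, 262 genes (3.37%) were higher and 289 (3.72%) lower in the Cd3-positive set, with a median log2 difference of -0.02. In this fit the spread was taken wholly from the pool of genes. A gene's own disagreement between libraries thus did not enter its p-value or SE. DESeq2 called 65 and 31. With cells of at least 8 Cd3 UMIs alone, an alternative chosen after the data had been seen, 135 were higher and 120 lower. Ncr1, Cd4, the Cd8 and Cd3 genes and Ccl5 chose the cells and are not read as results.

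The NK gene complex lectins had the largest median of the 16 lists. Of 23 tested, 18 were higher and 0 lower, with a median fitted log2 difference of 5.22. All 23 Klr genes looked up lie on chromosome 6 between 122270596 and 130386874 (mm10, GENCODE vM21). Klra8 stood at 628 CPM (7 weeks) and 321 CPM (12 weeks) against 1.43 and 1.21 CPM in CD8 T cells, a summed ratio of 390 (exact interval 132 to 1901). Klrb1c was at 109 and 137 CPM against 0 and 1.21 CPM, a ratio of 142 (37.8 to 1192). Cells with 7 or fewer Cd3 UMIs raise these values. In cells with 8 or more, Klra8 was at 400 and 86.5 CPM and Klrb1c at 46.8 and 59.5 CPM. Klrb1a, another NKR-P1 gene, had 84 UMIs over both libraries against 0 in the CD8 T cells, at least 112-fold higher against a floor of 3 counts over the set. It passed the filter on UMIs through the Cd3-positive set alone. Klrk1, the NKG2D gene that activated CD8 T cells also express, was at 584 and 622 CPM against 113 and 155 CPM (log2 fold change 2.13 ± 0.15). Klrd1, the CD94 gene, was at 560 and 783 CPM against 281 and 405 CPM (0.93 ± 0.13), the smallest difference among the Klr genes that passed. These 5 genes were higher in both libraries, as were 2650 of all 7771 genes tested.

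**Figure D4:**
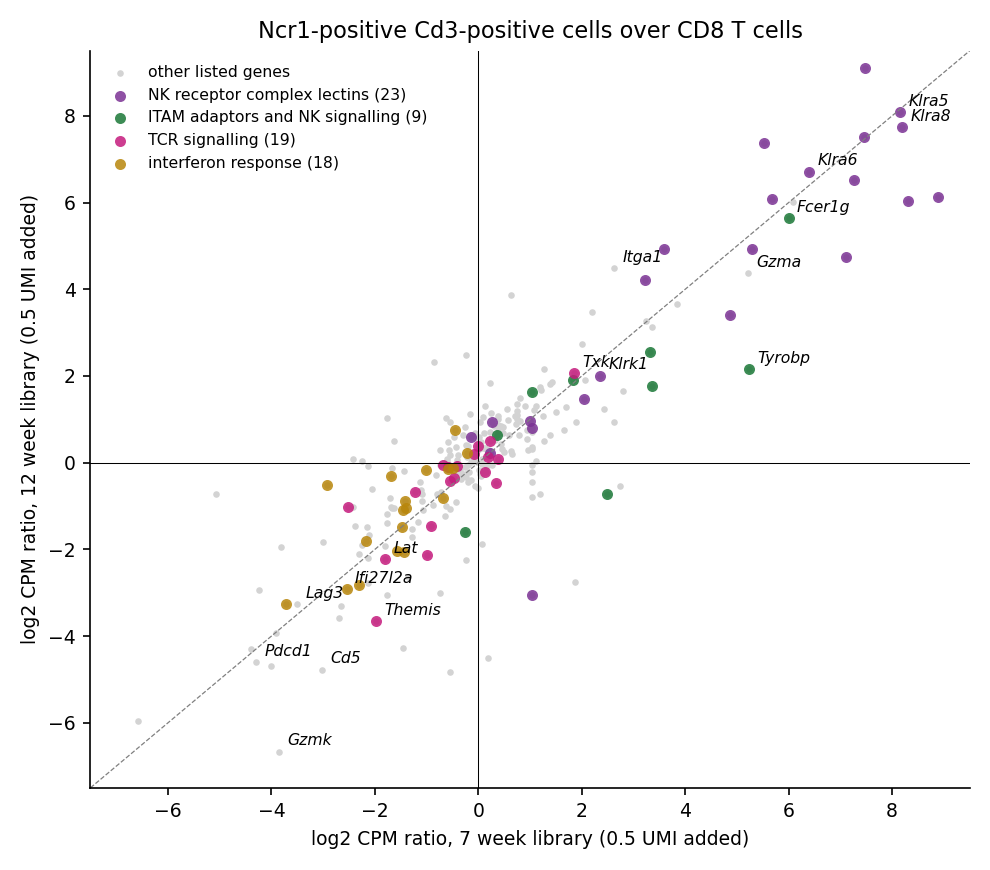
Log2 ratio of the Cd3-positive set over CD8 T cells at 7 weeks (horizontal axis) and at 12 weeks (vertical axis) for genes of the lists, 0.5 UMI added to each sum, points coloured by list. The dashed line marks equal ratios. Lectin genes such as Klra8 and Klra5 lie at the upper right, Pdcd1, Cd5 and Gzmk at the lower left.

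ITAM adaptor genes were higher and several T cell receptor signalling genes lower. Among 9 ITAM adaptor and NK signalling genes 6 were higher and 1, Sh2d2a, lower, with a median of 1.84. Fcer1g (ENSMUSG00000058715, chromosome 1, 171229572 to 171234365) was at 961 and 1229 CPM against 14.3 and 24.2 CPM in CD8 T cells, a log2 fold change of 5.74 ± 0.18 (edgeR adjusted p = 2.47e-201), and the groups lay far apart. Tyrobp was at 994 and 783 CPM against 25.8 and 176 CPM (3.11 ± 0.15). Syk, the kinase that ITAM motifs recruit in innate cells, was higher too, by 2.29 ± 0.57. Of 19 T cell receptor signalling genes 1 was higher and 6 lower, with a median of -0.40. The higher one was Txk, a Tec-family kinase of T and NK cells, at 631 and 687 CPM against 175 and 164 CPM (1.93 ± 0.15). The lower ones were Lat, Themis, Fyn, Cd247, Sit1 and Lck, with Lat at 147 and 141 CPM against 520 and 669 CPM (-2.06 ± 0.16) and Lck, the kinase that starts T cell receptor signalling, by -0.46 ± 0.12.

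More surface and inhibitory receptor genes of T cells were lower than higher. Of 19 T cell surface genes 3 were higher (Cd52, Tnfrsf18, Cd7) and 6 lower (Cd6, Cd5, Slamf6, Thy1, Ctla4, Icos), with a median of -0.32. Cd7 was at 944 and 1273 CPM against 406 and 398 CPM (1.42 ± 0.11), and Cd5 at 14.7 and 4.02 CPM against 132 and 164 CPM (-3.87 ± 0.39). Of 12 inhibitory receptor genes 4 were lower and 2 higher. Pdcd1, which encodes PD-1, was at 11.8 and 8.03 CPM against 260 and 244 CPM (-4.66 ± 0.35), and Lag3 at 26.5 and 48.2 CPM against 318 and 482 CPM (-3.47 ± 0.24). Ctla4 and Havcr2 were lower as well. The higher ones were Cd160, at 257 and 233 CPM against 81.7 and 139 CPM (1.11 ± 0.19), and Cd244, which encodes the NK receptor 2B4, at 112 and 116 CPM against 7.17 and 9.09 CPM (3.72 ± 0.38). Pdcd1, Lag3, Ctla4 and Havcr2 are known from chronically stimulated T cells, and Cd160 and Cd244 also from NK cells.

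Effector genes also moved in both directions. Of 18 cytotoxic granule and death ligand genes 7 were higher and 2 lower. Gzma (ENSMUSG00000023132, chromosome 13, 113093825 to 113100981) was at 1672 and 1088 CPM against 44.4 and 52.1 CPM (4.69 ± 0.15), though in cells with 8 or more Cd3 UMIs at 12 weeks it was at 43.3 CPM, no higher than in CD8 T cells. The granule protease genes Gzmk, at 8.85 and 0 CPM against 148 and 204 CPM (-5.07 ± 0.44), and Gzmb, at 35.4 and 28.1 CPM against 173 and 113 CPM (-2.23 ± 0.30), were lower. Xcl1 was at 1221 and 1325 CPM against 470 and 847 CPM (0.95 ± 0.10). Ccl4, an inflammatory chemokine, was at 209 and 201 CPM against 929 and 1382 CPM (-2.49 ± 0.13), and Ccl3 was lower by -0.75 ± 0.19. Tgfb1 and Fgl2 were the other 2 of 3 higher genes among 11 chemokine and cytokine genes.

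Transcription factor and cytokine receptor genes moved in both directions. Of 26 transcription factor genes 6 were higher (Id2, Eomes, Irf8, Ikzf2, Bhlhe40, Tbx21) and 4 lower (Tox, Bcl11b, Tox2, Lef1). Tbx21, the T-bet gene that group 1 lymphocytes need, was at 73.7 and 76.3 CPM against 27.2 and 21.2 CPM (1.61 ± 0.35), and Bcl11b, a factor of T cell commitment, at 29.5 and 32.1 CPM against 133 and 109 CPM (-2.03 ± 0.32). Irf8 was at 165 against 24.4 CPM at 7 weeks but at 76.3 against 113 CPM at 12 weeks, so its call rests on the 7 week library. Il2rb, the chain through which IL-15 maintains NK cells, was at 413 and 289 CPM against 76.0 and 122.5 CPM (1.75 ± 0.18), and Il18r1, Il18rap and Ifngr1 were higher too, while Il6ra was lower, among 16 cytokine receptor genes.

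Most interferon response genes were lower, and more immediate-early genes were higher than lower. Of 18 interferon response genes 11 were lower and 0 higher, with a median of -1.33, and Ifi27l2a was at 147 and 116 CPM against 870 and 895 CPM (-2.77 ± 0.15). Of 22 immediate-early and stress genes 8 were higher and 2 (Egr2, Ier3) lower, with a median of 0.34, among them Junb at 1522 and 1706 CPM against 1019 and 865 CPM (0.74 ± 0.09). Immediate-early genes also respond to tissue dissociation, whose part was not tested.

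The genes furthest below CD8 T cells by fitted change were at 0 in the Cd3-positive set. They therefore passed the filter of 20 UMIs through the CD8 T cells alone. The counting interval of the ratio included 1 for Klk1 at 7 weeks, where the CD8 T cells held 1 UMI. It also did at 12 weeks for Cd40, with 5 UMIs, and for Kcnk5, with 25. Dapl1 had 0 UMIs against 303 in the CD8 T cells, at least 25.3-fold lower against the floor of 3 counts over the set. Rnase6, Klk1, Tox2, Nrn1, Iigp1, Kcnk5 and Cd40 had 0 UMIs as well and were at least 8.44, 7.85, 7.18, 5.43, 3.68, 3.68 and 3.26-fold lower in that order. Some of these rest on few CD8 T cells. Of the 39 Cd40 UMIs, 6 remained without the cell with most of them in each library, which leaves no fold against the floor. The 94 Klk1 UMIs lay in 6 cells and the 101 Rnase6 UMIs in 14, and without the cell with most of them in each library they were at least 4.72 and 5.32-fold lower. Tox2 belongs to the exhaustion-linked TOX family, and Iigp1 is an interferon-induced GTPase.

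Ncr1-positive lymphocytes made up a smaller share of the kept cells at 12 than at 7 weeks. They were 5.86% of the 7 week cells (exact Clopper-Pearson 95% interval 4.55% to 7.41%) and 2.18% of the 12 week cells (1.67% to 2.79%), which gives a ratio of 0.371 (0.257 to 0.535). The Cd3-positive set went from 4.87% to 1.82%, a ratio of 0.374 (0.250 to 0.558), and the Cd3-negative set from 0.992% to 0.357%, a ratio of 0.360 (0.137 to 0.933). The interval of the Cd3-negative ratio holds that of the Cd3-positive ratio. No test was possible with a single library per age, the intervals cover counting error only, and these are shares of sorted and captured cells. The Cd3-negative cells were 16.9% (8.76% to 28.3%) of the 7 week members and 16.4% (8.15% to 28.1%) of the 12 week members. Thinned to 2000 UMIs per cell they were 38.2% and 24.1%, and no difference with age was detectable at this depth.

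Within the Cd3-positive set several Ly49 genes and Gzma differed between the ages. Of 2421 genes with at least 30 UMIs, 8.51% were more than 1.5 times higher at 12 weeks and 9.71% more than 1.5 times lower. Of 21 lectin genes measured, 2 were that much higher and 8 that much lower, with a median ratio of 1.07. Klra8 went from 628 to 321 CPM (ratio 0.51, interval 0.39 to 0.66), and Klra9 was at 339 and 104 CPM (0.31, 0.19 to 0.47). Klra6 went the other way, from 59.0 to 157 CPM (2.66, 1.51 to 4.80). Gzma was at 1672 and 1088 CPM (0.65, 0.56 to 0.75). Cells with 1 to 7 Cd3 UMIs, which hold more Gzma and Klra8, were 23 of 54 at 7 weeks and 15 of 51 at 12 weeks, beside these ratios. Acinar cell markers, which stray from pancreatic tissue, were at 11.8 CPM in the set at 7 weeks against 253 CPM at 12 weeks, and their part in the ratios was not tested.

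The age ratios differed between the ranges of Cd3 UMIs. Gzma had a ratio near 1 (interval 0.83 to 1.21) with 1 or 2 Cd3 UMIs and of 2.61 (1.94 to 3.53) with 3 to 7, and Klra8 of 1.44 (0.96 to 2.13) and 0.75 (0.45 to 1.24). The lower levels at 12 weeks were seen in cells with 8 or more Cd3 UMIs (31 and 36 cells). Gzma was at 322 and 43.3 CPM (ratio 0.13, interval 0.06 to 0.28), Klra8 at 400 and 86.5 CPM (0.22, 0.12 to 0.37) and Klra6 at 72.8 and 200 CPM (2.75, 1.45 to 5.50). Ikzf2 was at 338 and 162 CPM (0.48, 0.30 to 0.75). A single 7 week cell of 9662 UMIs held 43 of the 62 Gzma and 44 of the 77 Klra8 UMIs. Without it the ratios were 0.42 (0.16 to 0.99) and 0.48 (0.25 to 0.89). Without the 7 week cell with most Ikzf2 UMIs, the Ikzf2 ratio was 0.63 (0.38 to 1.01). Ccl5, with a ratio of 1.02, and Fcer1g, with 1.16, were near their 7 week level. The Gzma values at 7 weeks came from 5 of 31 cells and at 12 weeks from 5 of 36, and intervals of UMI ratios leave out variation between cells. By rank, the other genes with the highest ratios in the Cd3-positive set were Bcl2a1b, an anti-apoptotic gene (29.5 and 100 CPM), Mfsd10, the antiviral deaminase gene Apobec3, Bre and Amica1, an adhesion gene. The lowest besides Klra9 were the immediate-early gene Ier5, Tmem160, AY036118, Polr2m and Klhdc2, with ratios of 0.20 to 0.33. T cell surface genes had a median ratio of 1.40, with 4 of 12 measured more than 1.5 times higher and 0 as much lower.

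**Figure D5:**
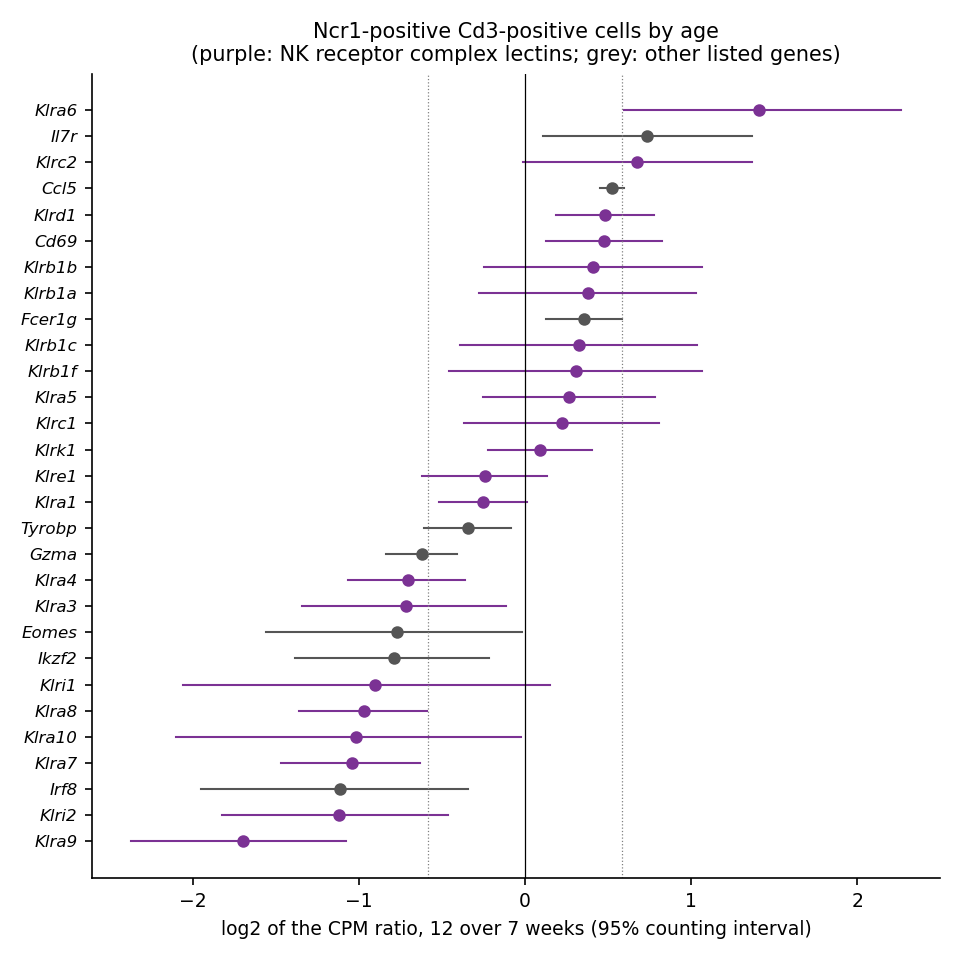
Log2 of the ratio of 12 over 7 week CPM (horizontal axis) in the Cd3-positive set for the measured lectin genes (purple) and 8 other listed genes chosen after their values were seen (grey), bars showing the exact 95% interval and dotted lines a change of 1.5 times. Klra9 (ratio 0.31) and Klra8 (0.51) lie to the left of no change and Klra6 (2.66) to the right, and several lectin intervals span no change.

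In the Cd3-negative set, 11 and 10 cells, single cells carried much of the difference with age. Of 490 genes measured, 16.7% were more than 1.5 times higher at 12 weeks and 13.3% more than 1.5 times lower. Of the immediate-early and stress genes, 7 of 14 measured were more than 1.5 times lower, the median ratio was 0.66, and the co-chaperone gene Dnajb1 went from 1090 to 135 CPM (ratio 0.12, and 0.23 without the cell that held 50% of its 7 week UMIs). Dusp1, a phosphatase gene of the same list, was at 1050 and 271 CPM. Pim1, Akap13, Zfp36l1 and Klf6, at 646 and 152 CPM, were the others named by rank as lower. Irf8 was at 80.7 and 710 CPM, a ratio of 8.80 (3.19 to 33.8), and of 3.96 without the cell that held 57.1% of its 12 week UMIs. Ifitm1, with 0 UMIs at 7 weeks and 60 at 12 weeks, and Gadd45g had 75% and 89.4% of their 12 week UMIs in 1 cell, and Cxcl9, whose 29 UMIs at 12 weeks lay in the Cd74-rich barcode, Ctss and Ifng were the others named as higher.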

How the data were processed

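For each library the authors deposited raw UMI counts of every gene in every barcode. Per the submitters' processing notes, Cell Ranger 1.3.1 and mm10 were used. How cells were called, and on which annotation, was not stated there. The matrices listed all but 2 of 375 genes named in the lists and markers. The members and gene lists were chosen with earlier results of these data known.

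A barcode was kept at 200 genes or more and 10% mitochondrial UMIs or less, which removed 4 and 8. Raw counts were summed per set and library. Median depth was 6201.5 and 4813 UMIs per cell in the Cd3-positive set, 4594 and 5065.5 in the Cd3-negative set and 6087.5 and 5379.5 in CD8 T cells. Set differences were fitted with edgeR 4.0.16 (R 4.3.3, TMM, quasi-likelihood, genes of at least 20 UMIs, Benjamini-Hochberg threshold 0.05), with library as the term that pairs sets of the same library. DESeq2 1.42.0 was an alternative, and the fit was tested on simulated data. With 1 library per age, age ratios had no test, only exact 95% intervals on genes of at least 30 UMIs. The p-values rest on these 2 libraries alone, with the spread pooled over genes by edgeR. Prior degrees of freedom were 5.63 for the Cd3 split and infinite against CD8 T cells. In the latter fit a gene's own spread between libraries did not enter its p-value or SE. No doublets were removed; Scrublet (scanpy 1.11.5, Python 3.11.15) served as an alternative, so doublets may remain.

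Named were genes of the lists, in each set comparison the largest changes in each direction among genes that passed with the same sign in both libraries (12 for the Cd3 split, 8 against CD8 T cells), and for age the 6 highest and 6 lowest ratios whose interval excluded 1. Genes of the selection, mitochondrial, ribosomal protein, haemoglobin, acinar, endocrine and predicted genes were left out of these ranks.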

Additional observations from a re-analysis of the deposited data

Results flagged for a closer look

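For 5 genes of the lists or named by rank, the Cd3-negative and Cd3-positive sets differed in opposite directions at 7 and at 12 weeks, with both counting intervals excluding 1. The difference between the ages was not tested. Dnajb1, a heat shock co-chaperone, had a Cd3-negative over Cd3-positive ratio of 2.46 at 7 weeks and 0.318 at 12 weeks. The AP-1 gene Junb had ratios of 1.84 and 0.743, and the transcription factor gene Klf6 of 1.87 and 0.348. Ptpn22, a phosphatase that limits T cell receptor signalling, had ratios of 1.99 and 0.263. Cd69, an early activation and retention receptor, went the other way, from 0.350 to 1.53. The ratios rest on 11 and 10 Cd3-negative cells, and 3 of the 5 on single ones. Without the Cd3-negative cell with most UMIs of the gene, an alternative chosen after the data had been seen, Cd69 was at 0.380 (0.185 to 0.701) at 12 weeks, so its opposite direction was lost: that cell held 40 of its 51 UMIs. Dnajb1 was then at 1.39 (0.89 to 2.11) at 7 weeks, where 1 cell held 27 of 54 UMIs, and Ptpn22 at 1.66 (0.81 to 3.14). Junb, at 1.63 and 0.535, and Klf6, at 1.66 and 0.299, kept intervals that exclude 1 at both ages.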

How the results depend on the processing

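With 21 Cd3-negative cells and 1 library per age, the counts of genes that passed moved with nearly every choice. For the Cd3 split (4 higher and 0 lower) they were 12 and 12 with median-of-ratios scaling, 28 and 120 without the filter on UMIs, 17 and 68 with 3 sets in one fit, 24 and 53 in cells of at least 4000 UMIs, 38 and 65 with positive cells at 2 or more Cd3 UMIs, and 10 and 1 with Cd8, Cd79a and Lyz2 at 0. DESeq2 gave 7 and 0, and Ncr1 at 2 or more gave 0 and 0, with 222 genes at an unadjusted p under 0.05 in edgeR. Alternatives chosen after seeing the data gave 16 and 3 (split between 2 and 3 Cd3 UMIs), 51 and 17 (between 7 and 8), 39 and 16 (the same without the 2 Cd74-rich barcodes) and 5 and 14 (without those barcodes alone). The cause was not tested, except that Cd74 lost its direction where the Cd74-rich barcodes left: it was -0.14 with the stricter zeros, -0.10 without them and -0.18 with the split between 7 and 8 as well. H2-Eb1 was at -0.86, -0.14 and -0.40 in these, and H2-Ab1 at -0.13 and -0.16 without the barcodes.

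Against CD8 T cells (262 higher and 289 lower) DESeq2 gave 65 and 31, and thinning to 2000 UMIs 107 and 110. The stricter zeros gave 103 and 98, and cells of 8 or more Cd3 UMIs 135 and 120. The Cd74-rich barcodes have 0 Cd3 UMIs and are in neither set, so leaving them out could change nothing here. With 3 sets in one fit 164 were lower. With no replicate block, that is without the pairing by library, 100 were higher and 66 lower, and the Cd3 split gave 6 and 0. None of the 16 genes named by rank changed direction in any setting where it had a value. With DESeq2 7 kept the call and 2 missed it, and after thinning 11 kept it. The others of the 16 had no value there. Of the 228 tested values 14 missed the threshold, among them Klrb1a and Dapl1 with DESeq2. Both counts include the settings without the Cd74-rich barcodes, which repeat other fits for these sets. The Cd3-negative share of the members was 38.2% at 7 weeks and 31.2% over both libraries after thinning, 38.5% and 33.3% with the split between 2 and 3, and 52.3%, 41.0% at 12 weeks and 46.8% over both with the split between 7 and 8. Without the cell that held most of a gene's UMIs, the age ratio of Ifng in Cd3-negative cells was 0.170, and over all members those of Cxcl9, H2-Ab1 and Cd74 were 0.783, 0.733 and 0.347.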

Other observations

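Cells with few Cd3 transcripts differed among themselves in Tmem176 transcripts. Among the members with 7 or fewer Cd3 UMIs, leaving out the 2 barcodes rich in Cd74, 19 held Tmem176a or Tmem176b, a pair of membrane protein genes found in ILC1 and ILC3, and 38 did not. This division was chosen after the data had been seen and has no test. Several, but not all, NK receptor and granule genes were higher in the cells without Tmem176. The activating Ly49H gene Klra8 was found in 30 of these 38 and in 1 of the 19 others, at 1319 against 99.0 CPM with both libraries summed. Gzma was at 5026 CPM (7 weeks) and 5930 CPM (12 weeks) in the cells without Tmem176, and at 784 and 299 CPM in those with it. Eomes, the factor of conventional NK maturation, was found in 22 of 38 against 4 of 19.

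Klrk1 was at 821 CPM in the 19 cells with Tmem176 transcripts against 716 CPM in the others, and Klrb1a was at 257 against 267 CPM. The genes that follow were picked after this division. Cxcr6, a receptor for retention in tissue, reached 695 CPM (7 weeks) and 988 CPM (12 weeks) in them, against 97.6 and 151 CPM in the others. Il7r was found in 10 of 19 against 4 of 38, with counting intervals that overlap at 12 weeks. Cd69 was at 177 against 309 CPM at 7 weeks and at 1527 against 630 CPM at 12 weeks. Id2, a factor all innate lymphoid cells need, was at 1801 against 711 CPM, and the surface gene Ly6a at 1959 against 815 CPM. Both groups held Ncr1, at 1395 and 1092 CPM, and Fcer1g, at 1188 and 1448 CPM. The integrin gene Itga1, which defines ILC1 in many tissues, was found in 3 of 19 and 1 of 38, and the ILC3 genes Il22 and Il23r were at 0 in both. The median depth was 4798 UMIs with and 4627 UMIs without Tmem176 transcripts, and the median Cd3 count 1 and 1.5.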
